A study of Mus with 18 samples.

Results

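Messenger RNA levels of 10 genes of TGF-β, activin and GDF15 signalling were examined in libraries labelled as C2C12 mouse myoblasts and in mouse gastrocnemius muscle. The genes were chosen by symbol, as 10 of the 21401 symbols listed for each experiment, and all 10 were found in both. They are the ligand genes Tgfb1, Tgfb2, Tgfb3, Inhba and Gdf15, the receptor genes Tgfbr1, Tgfbr2 and Acvr2b, and the inhibitor genes Fst and Smad7.

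TGF-β ligands bind a type II receptor, which recruits and phosphorylates a type I receptor, and the type I receptor then phosphorylates Smad2 and Smad3 so that they enter the nucleus with Smad4. Activins, dimers of inhibin β subunits, and myostatin signal through activin type II receptors to the same Smads, and in skeletal muscle this branch is known to restrain growth. GDF15 is a distant relative of these ligands that is secreted under cell stress and acts through the receptor GFRAL in the hindbrain. GDF15 is also called MIC-1, macrophage inhibitory cytokine, but here MIC-1 stands for moringa isothiocyanate-1, a plant isothiocyanate, and no group received GDF15 protein.

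The study asked how MIC-1 changes the response to lipopolysaccharide (LPS), a bacterial cell wall component that triggers inflammation. Of the 18 libraries, each experiment had 3 per group (control, LPS, LPS-MIC-1), and every sample was labelled wild type. In culture, LPS was given at 1 μg/mL, and the LPS-MIC-1 samples received the same LPS dose with 10 μM MIC-1 for 24 h by the labels, whereas the study's text names a lower MIC-1 concentration. Male C57BL/6 mice of unstated age received LPS at 10 mg/kg into the peritoneum, and the LPS-MIC-1 mice had also been gavaged with MIC-1 at 80 mg/kg in 10% DMSO daily for 3 days. Muscles were taken 16 h after LPS. The labels call both control groups saline vehicle, whereas the study's text names ethanol as the vehicle for the cells and 10% DMSO by mouth for the control mice. No group received MIC-1 without LPS.

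Values are FPKM, reads scaled for transcript length and library size, and the number of reads behind each library is unknown. In the fits, a gene was called higher or lower when its absolute log2 fold change was over 1 and its Benjamini-Hochberg adjusted p from limma was under 0.001 in the C2C12 experiment or 0.05 in muscle. Only genes with a mean over 1 FPKM were tested, 10877 in C2C12 and 9475 in muscle. Fold changes are on the log2(FPKM + 0.1) scale, which understates the change of low genes. The labels do not say whether the cell libraries came from separate cultures, so p-values there measure the spread between these libraries, which may be technical.

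Marker genes set a limit on the C2C12 comparisons. The summed FPKM of 15 macrophage genes was 11036 to 11091 in the control libraries and 7834 to 8072 with LPS, but 292, 80.5 and 91.1 in replicates 1, 2 and 3 of LPS-MIC-1. The 12 myogenic genes summed to at most 1.69 in the control libraries and 4.74 with LPS, but to 1038 to 1282 with LPS-MIC-1, and the myoblast genes Myf5 and Pax7 were listed at 0 in every control and LPS library. The libraries labelled control and LPS therefore went against the myoblast label, and the marker levels moved with MIC-1. In each C2C12 result below that sets LPS-MIC-1 against another group, the treatment and the cell type cannot be told apart. In muscle, the 12 fibre genes summed to between 208350 and 213694 for control, between 200351 and 204338 for LPS, and between 159489 and 173200 for LPS-MIC-1, and LPS-MIC-1 replicate 3 stood apart with a macrophage sum of 212, against 43.7 and 40.6 in the other two. In bulk samples, fewer cells of a type and less RNA per cell cannot be told apart.

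**Figure D1:**
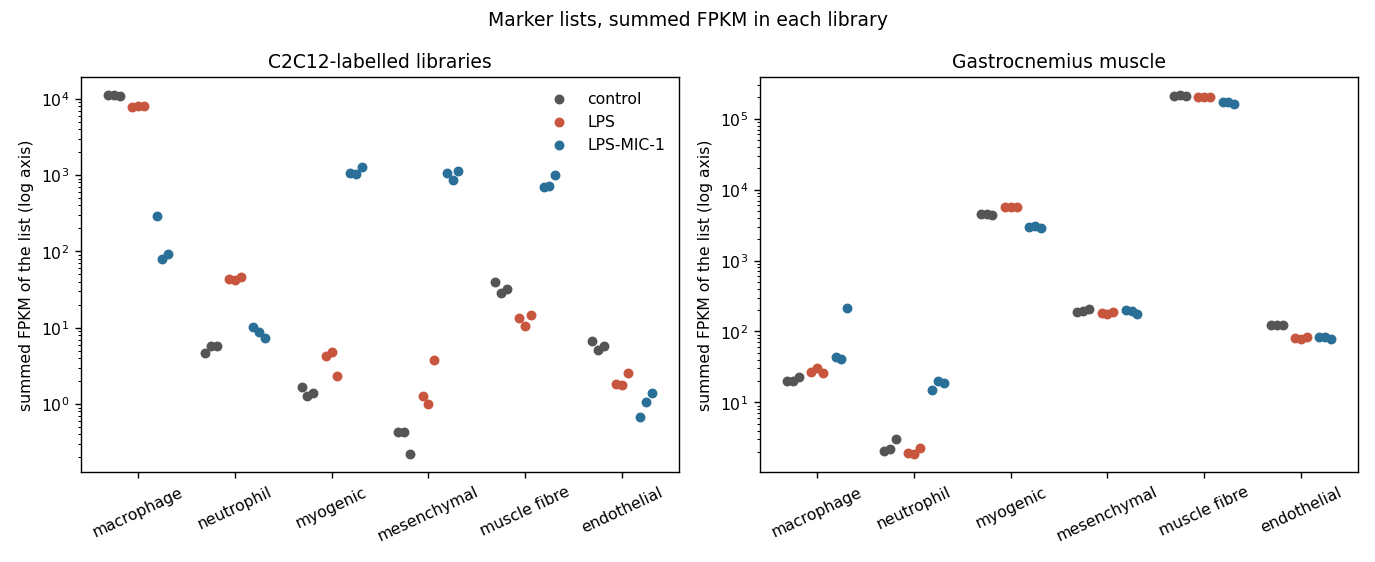
Summed FPKM (log axis) of 6 marker lists in each library of the C2C12-labelled set (left) and of gastrocnemius muscle (right), 1 point per library. Macrophage sums were 7834 or more in the C2C12 control and LPS libraries and at most 292 in LPS-MIC-1, with myogenic sums the other way round, and 1 muscle LPS-MIC-1 library reached a macrophage sum of 212.

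In the C2C12-labelled libraries the TGF-β ligand genes divided. Tgfb1 was abundant in every group and fell in LPS-MIC-1, whereas Tgfb2 and Tgfb3 were near 0 in control and LPS and were measured clearly only in LPS-MIC-1. Inhba was higher in LPS than in control and higher again in LPS-MIC-1.

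Tgfb1, the ligand gene expressed by many immune cells, stood at 189, 191 and 192 FPKM in the control libraries. It stood at 235, 221 and 217 FPKM in LPS and at 93.1, 81.3 and 98.9 FPKM in LPS-MIC-1. None of the groups overlapped, with LPS highest and LPS-MIC-1 lowest. LPS exceeded control by 0.23 on the log2 scale (SE 0.0711, adjusted p = 0.0203), which is not a call. The log2 fold change of LPS-MIC-1 was -1.30 against LPS (SE 0.0711, adjusted p = 5.05e-07) and -1.07 against control (adjusted p = 1.96e-06). Without LPS-MIC-1 replicate 2, the value against control was -0.99, under the fold limit.

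Tgfb3, a ligand gene of mesenchymal and muscle tissue, was measured at 0.0620, 0.0460 and 0 FPKM in control and at 0, 0.0368 and 0.0915 FPKM in LPS. In LPS-MIC-1 the values were 13.0, 12.2 and 14.1 FPKM. The control and LPS values overlapped fully, and the LPS-MIC-1 libraries lay far above them. Tgfb3 rose in LPS-MIC-1 by 6.58 against LPS (SE 0.273, adjusted p = 1.09e-07) and by 6.63 against control (adjusted p = 1.12e-07) on the log2 scale. The size depended on the pseudocount, from 3.75 to 8.49 against LPS over the alternatives, because the other groups are close to 0. Tgfb3 passed the FPKM filter only through the LPS-MIC-1 group. The fold change of LPS against control was 0.049 (adjusted p = 0.899).

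Tgfb2, the third isoform, had the same order at a lower level and did not pass the filter. Its values were 0.0101, 0.0200 and 0.00988 FPKM in control, 0.0120, 0 and 0 FPKM in LPS, and 1.80, 1.07 and 1.07 FPKM in LPS-MIC-1. In the fit without an FPKM filter, the log2 fold change of LPS-MIC-1 against LPS was 3.73 (SE 0.207, adjusted p = 6.32e-07). In the same libraries the mesenchymal marker list summed to 0.997 to 3.83 FPKM in LPS and 855 to 1130 FPKM in LPS-MIC-1.

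Inhba encodes the inhibin βA subunit, of which activin A is a dimer. It was listed at 0, 0.0317 and 0.00783 FPKM in control, 1.31, 1.34 and 1.23 FPKM in LPS, and 8.41, 8.26 and 5.54 FPKM in LPS-MIC-1. The groups rose in steps without overlap, and LPS-MIC-1 replicate 3 was the lowest of its group. Inhba rose by 3.63 in LPS against control (SE 0.195, adjusted p = 1.6e-06), with 1.18 to 6.06 over the alternatives since control is near 0. LPS-MIC-1 exceeded LPS by 2.41 (SE 0.195, adjusted p = 5.93e-06), a call lost with a pseudocount of 0.01 (adjusted p = 0.00158). LPS against control is the C2C12 comparison whose groups both carried macrophage sums above 7834 and myogenic sums of at most 4.74. Between these groups the neutrophil markers summed to 4.66 to 5.84 FPKM in control and 42.4 to 46.5 FPKM in LPS. In LPS, Mmp9 stood at 30.7 and S100a8 at 10.8 FPKM, while S100a9, Retnlg and Ngp were listed at 0. Of 4 neutrophil markers tested, 2 were called higher and 1 lower. Mmp9 passed the FPKM filter only through LPS and Csf3r only through control, so this count describes the genes only. The median level of the macrophage list was 438 to 444 FPKM in control and 237 to 241 FPKM in LPS. Of its 15 genes, 1 was called higher and 0 lower, in a fit whose spread estimate includes the LPS-MIC-1 libraries. Lyz2, at 0.616 to 48.8 FPKM in those libraries, was not called. It ran from 4598 to 4761 FPKM in control and from 1786 to 1866 FPKM in LPS. Cd14 and Fcer1g went the other way, with 700 to 709 and 971 to 1048 FPKM in control and 2013 to 2078 and 1196 to 1251 FPKM in LPS. The part of these markers in the result was not tested. Inhba, like Tgfb3, passed the filter only through LPS-MIC-1.

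Gdf15 was barely measured. It was listed at 0 in all 3 control libraries, at 0.348, 0 and 0 FPKM in LPS and at 0.870, 0.705 and 0.632 FPKM in LPS-MIC-1. Each LPS-MIC-1 library was above every other library, but all 9 values were below the 1 FPKM filter. Without the filter the log2 fold change of LPS-MIC-1 against LPS was 2.33 (SE 0.532, adjusted p = 0.00381), not past the 0.001 limit. In the same fit LPS-MIC-1 against control passed both limits (adjusted p = 0.000884), with no fold given since control was listed at 0. The authors' normalized mean counts for Gdf15 were 1.47 over control and LPS, 8.13 over control and LPS-MIC-1 and 8.56 over LPS and LPS-MIC-1, so these FPKM values rest on a handful of reads.

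**Figure D2:**
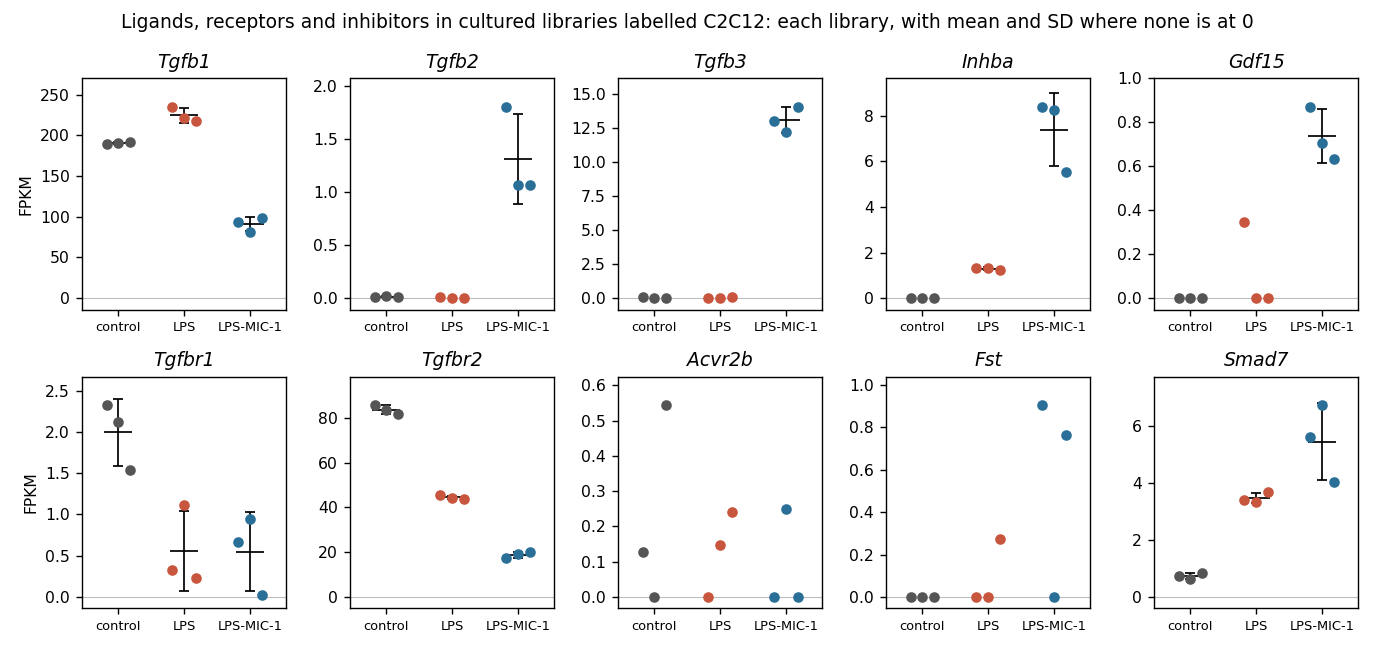
FPKM (linear axes, each with its own range) of the 10 genes in the C2C12-labelled libraries, 1 point per library, with a bar for the group mean and SD (n = 3) where no library is listed at 0. Tgfb1 and Tgfbr2 were lowest in LPS-MIC-1, at 81.3 to 98.9 and 17.2 to 20.0 FPKM, while Tgfb2, Tgfb3, Inhba and Smad7 were highest there.

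Among the receptor genes, Tgfbr2 followed a descending order over the groups. Tgfbr2, the type II receptor that binds TGF-β directly, stood at 85.6, 83.7 and 81.9 FPKM in control. It stood at 45.4, 44.3 and 43.7 FPKM in LPS and at 17.2, 19.0 and 20.0 FPKM in LPS-MIC-1. The replicates lay close together and no groups overlapped. The step from control to LPS was -0.91 on the log2 scale (SE 0.0581, adjusted p = 3.94e-06), past the adjusted p but short of the fold limit in every alternative run, with a range of -0.99 to -0.90. The log2 fold change of LPS-MIC-1 was -1.25 against LPS (SE 0.0581, adjusted p = 2.04e-07) and -2.16 against control (adjusted p = 1.17e-08).

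Tgfbr1, the type I receptor that carries the kinase activity to the Smads, was much lower and more variable. Its values were 2.32, 2.12 and 1.54 FPKM in control, 0.327, 1.12 and 0.231 FPKM in LPS, and 0.671, 0.950 and 0.0192 FPKM in LPS-MIC-1. Every control library was above every other library, and LPS and LPS-MIC-1 overlapped. No comparison was called, with log2 fold changes of -1.89 for LPS against control (SE 0.830, adjusted p = 0.0794), -0.28 for LPS-MIC-1 against LPS (adjusted p = 0.761) and -2.17 for LPS-MIC-1 against control (adjusted p = 0.0393). Tgfbr1 passed the FPKM filter only through the control group. The sign against LPS turned to 0.69 without LPS-MIC-1 replicate 3 and to 0.29 without LPS replicate 2.

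Acvr2b, an activin and myostatin receptor, did not pass the filter. It was listed at 0.128, 0 and 0.543 FPKM in control, 0, 0.146 and 0.241 FPKM in LPS and 0, 0.248 and 0 FPKM in LPS-MIC-1, and all groups overlapped. The authors' normalized mean counts for Acvr2b were 16.8 to 34.4 over the 3 pairs of groups. Without the filter none of its 3 comparisons was called, with adjusted p values of 0.852 for LPS against control, 0.645 for LPS-MIC-1 against LPS and 0.453 for LPS-MIC-1 against control.

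Of the inhibitor genes, Smad7 rose and Fst stayed near 0. Smad7, the inhibitory Smad that is itself a target of TGF-β signalling and recruits ubiquitin ligases to the type I receptor, stood at 0.725, 0.637 and 0.836 FPKM in control. It stood at 3.39, 3.32 and 3.66 FPKM in LPS and at 5.59, 6.71 and 4.03 FPKM in LPS-MIC-1. The groups did not overlap, and the LPS-MIC-1 libraries spread the most. Smad7 rose by 2.10 in LPS against control (SE 0.190, adjusted p = 2.78e-05) and by 2.71 in LPS-MIC-1 against control (adjusted p = 2.74e-06). The difference between LPS-MIC-1 and LPS was 0.61 (SE 0.190, adjusted p = 0.0160), which is not a call.

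Fst encodes follistatin, which binds activins and myostatin and keeps them from their receptors. It was listed at 0 in all 3 control libraries, at 0, 0 and 0.272 FPKM in LPS and at 0.903, 0 and 0.765 FPKM in LPS-MIC-1. One LPS-MIC-1 library was at 0, so the groups overlapped. Without the filter, the log2 fold change of LPS-MIC-1 against LPS was 1.51 (SE 0.892, adjusted p = 0.154).

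Of the 6 genes tested in C2C12, 2 were called for LPS against control, both higher, where 20.9% of all genes tested were called, 10.9% higher and 10% lower. For LPS-MIC-1 against LPS, 2 were called higher and 2 lower, with 49.9% of all genes called, 24.3% higher and 25.6% lower. For LPS-MIC-1 against control, 3 were higher and 2 lower, with 43.3% of all genes called, 21.1% higher and 22.1% lower. Groups did not overlap for 5, 5 and 6 of the 6 genes in these comparisons, beside 79.4%, 85.5% and 83% of all genes tested. Both comparisons with LPS-MIC-1 share those libraries, and Tgfb3 and Inhba were tested only through their LPS-MIC-1 values and Tgfbr1 only through its control values, so the counts describe the genes only. Leaving out LPS-MIC-1 replicate 1, the group's library with the highest macrophage sum, gave 2, 4 and 5 genes called, as with all libraries.

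Muscle showed another set of levels. Tgfb1, Tgfb2, Tgfb3, Tgfbr2 and Smad7 were measured between 1.69 and 11.2 FPKM in every library, and the other 5 genes did not pass the filter. LPS alone called none of the 5, and the differences of LPS-MIC-1 were mostly under the fold limit, with Tgfbr2 and Smad7 higher and Tgfb3 lower.

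Tgfb3 was the highest ligand gene in muscle, at 11.2, 10.1 and 10.4 FPKM in control, 9.86, 9.61 and 10.6 FPKM in LPS and 7.26, 8.52 and 6.89 FPKM in LPS-MIC-1. Control and LPS overlapped, and every LPS-MIC-1 library was below both. The log2 fold change of LPS-MIC-1 was -0.41 against LPS (SE 0.0869, adjusted p = 0.00393) and -0.48 against control (adjusted p = 0.00155), while that of LPS against control was -0.074 (adjusted p = 0.623). Under quantile normalization, which moved the median of all genes from -0.0090 to -0.12 against LPS and from 0.0095 to -0.10 against control, the Tgfb3 difference kept its sign. The mesenchymal marker list summed to 178 to 198 FPKM in LPS-MIC-1 and 175 to 187 FPKM in LPS, with 4 of its 10 tested genes called lower, and the fibre list had lower sums, given above, but a higher median level, 13418 to 14229 FPKM against 11616 to 11793 FPKM. The mesenchymal genes Pdgfra and Fbn1 passed the FPKM filter only with both the control and the LPS libraries counted. The part of the mesenchymal and fibre markers in the Tgfb3 values was not tested.

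Tgfb1 in muscle was low, at 4.66, 4.08 and 3.50 FPKM in control, 3.07, 3.23 and 2.83 FPKM in LPS and 2.71, 2.40 and 5.28 FPKM in LPS-MIC-1. The LPS libraries were below every control library, and the LPS-MIC-1 group held both the lowest and the highest value of the 9. The value of 5.28 FPKM came from replicate 3, the library with the macrophage sum of 212. With all libraries, the fold change was -0.40 for LPS against control (SE 0.264, adjusted p = 0.355), 0.10 for LPS-MIC-1 against LPS (adjusted p = 0.781) and -0.31 for LPS-MIC-1 against control (adjusted p = 0.347). Without LPS-MIC-1 replicate 3 the last 2 became -0.24 (adjusted p = 0.175) and -0.65 (adjusted p = 0.00565).

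Tgfb2 stood at 3.78, 4.03 and 3.03 FPKM in control, 2.67, 2.18 and 2.64 FPKM in LPS and 2.75, 3.00 and 2.60 FPKM in LPS-MIC-1. Every control library was above both other groups, which overlapped with each other. The fold change of LPS against control was -0.51 (SE 0.133, adjusted p = 0.0351) and that of LPS-MIC-1 against control was -0.36 (adjusted p = 0.0469), both short of the fold limit, and the adjusted p ranged up to 0.109 and 0.148 over the alternatives. LPS-MIC-1 and LPS differed by 0.15 (adjusted p = 0.355). The endothelial markers summed to 122 to 124 FPKM in control and 79.2 to 83.1 FPKM in LPS, and of the 6 tested, 0 were called and 5 were past the adjusted p at any fold, with a list median of -0.62. Their part in the Tgfb2 values was not tested.

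Inhba and Gdf15 were at the bottom of the muscle range. Inhba was at most 0.0951 FPKM in all 9 libraries. It ran from 0.0235 to 0.0951 FPKM for control, from 0.0119 to 0.0709 FPKM for LPS, and from 0.0232 to 0.0336 FPKM for LPS-MIC-1, with all groups overlapping. Gdf15 was listed at 0 in all 9, so no fold change can be given. An exact 0 in these values need not mean absence, since Ywhaz, a gene used by nearly all cells, was also listed at 0 in 2 muscle libraries.

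Tgfbr2 was higher in the muscle of LPS-MIC-1 mice. It was measured at 4.40, 4.97 and 4.21 FPKM in control, 4.32, 4.66 and 4.22 FPKM in LPS, and 7.34, 8.05 and 8.16 FPKM in LPS-MIC-1. Control and LPS overlapped, and all 3 LPS-MIC-1 libraries were above both. The difference was 0.82 against LPS (SE 0.0826, adjusted p = 5.56e-05) and 0.78 against control (adjusted p = 6.99e-05), past the adjusted p but under the fold limit in every alternative run. LPS minus control was -0.038 (adjusted p = 0.804).

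Tgfbr1 was listed at 0 in all 3 control muscles, at 0.503, 0.0133 and 0.683 FPKM in LPS and at 0.439, 0 and 0.496 FPKM in LPS-MIC-1. Acvr2b was listed at 1.01, 0 and 1.86 FPKM in control, 0, 0 and 0.511 FPKM in LPS and 0, 0.492 and 0 FPKM in LPS-MIC-1. Every LPS library of Tgfbr1 was above the control libraries listed at 0, while LPS and LPS-MIC-1 overlapped. For Acvr2b all groups overlapped.

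Smad7 was the gene of the list that was called in muscle. It stood at 1.69, 2.15 and 1.84 FPKM in control, 1.93, 2.20 and 1.93 FPKM in LPS and 4.11, 4.33 and 3.90 FPKM in LPS-MIC-1. Control and LPS overlapped, and the LPS-MIC-1 libraries lay above both with little spread. Smad7 rose by 1.08 against control (SE 0.114, adjusted p = 6.71e-05), a call lost to the fold limit with a pseudocount of 1 (0.82) and under quantile normalization (0.99). Against LPS the difference was 0.99 (SE 0.114, adjusted p = 0.000121), just under the fold limit, and it was called at 1.02 with a pseudocount of 0.01, at 1.05 without LPS replicate 2 and at 1.03 without LPS-MIC-1 replicate 3. LPS against control gave 0.094 (adjusted p = 0.634).

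Fst was listed at 0, 0 and 0.310 FPKM in control, 0.435, 0 and 0 FPKM in LPS and 0, 0.380 and 0 FPKM in LPS-MIC-1. Each group held 1 library above 0, and nothing separated the groups.

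**Figure D3:**
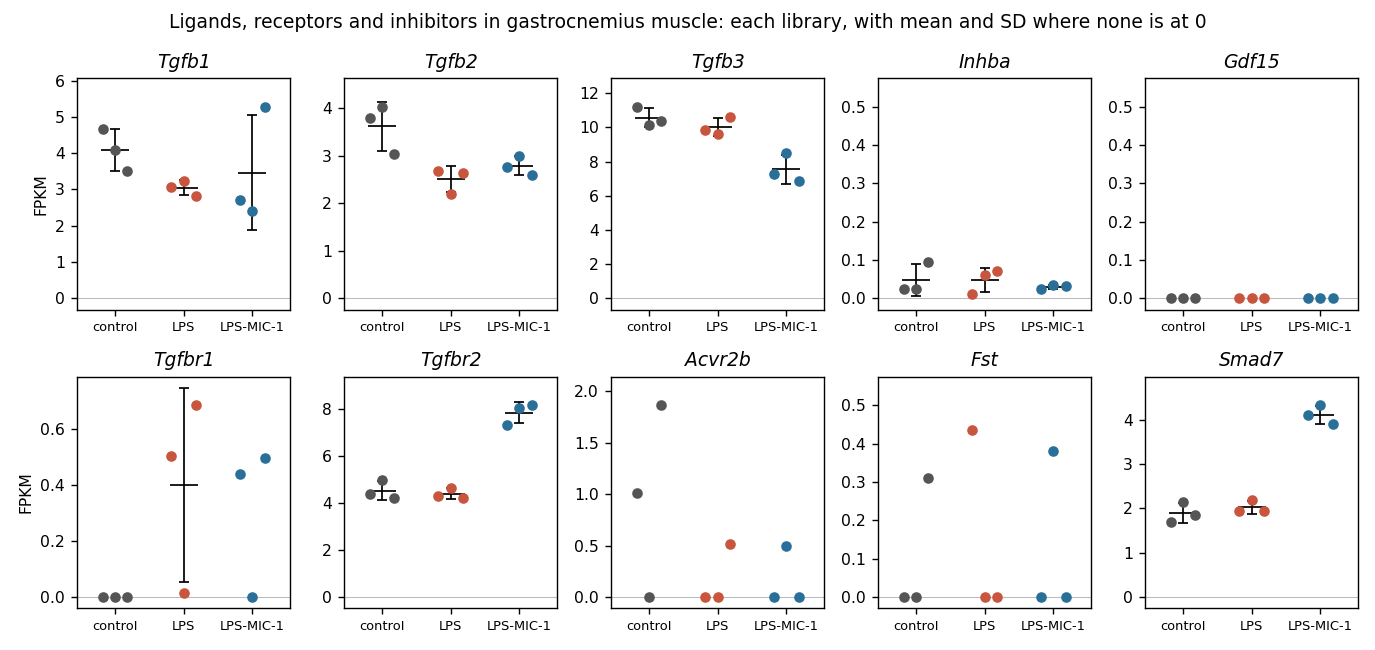
FPKM (linear axes, each with its own range) of the 10 genes in gastrocnemius muscle, 1 point per library, with a bar for the group mean and SD (n = 3) where no library is listed at 0. Tgfbr2 and Smad7 were highest and Tgfb3 lowest in LPS-MIC-1, and 1 LPS-MIC-1 library had a Tgfb1 level of 5.28 FPKM while the other two had 2.71 and 2.40.

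Of the 5 genes tested in muscle, 0 were called for LPS against control by limma, with 1 at an unadjusted p under 0.05, where 1.25% of all genes tested were called, 0.654% higher and 0.591% lower. For LPS-MIC-1 against LPS, 0 were called, with 3 at an unadjusted p under 0.05 and 15.1% of all genes called, 9.67% higher and 5.44% lower. Over all genes the split there was 916 higher and 515 lower, and 781 higher and 667 lower under quantile normalization. For LPS-MIC-1 against control, 1 of 5 was called, higher, with 15.5% of all genes called, 9.33% higher and 6.12% lower. Groups did not overlap for 2, 3 and 4 of the 5 genes, beside 36.5%, 64.2% and 64.6% of all genes tested. Without LPS-MIC-1 replicate 3 the counts were 0, 1 and 1. In the LPS-MIC-1 muscles the 9 neutrophil markers summed to 15.1 to 20.1 FPKM, against 2.03 to 3.06 in control and 1.86 to 2.24 in LPS, and the macrophage genes to 40.6 to 212 FPKM, against 19.8 to 22.6 in control and 25.9 to 30.2 in LPS. Of 9 macrophage genes tested, 4 were called higher against LPS. Among the 9, Cd14 and Mpeg1 passed the FPKM filter only through LPS-MIC-1, so this count describes the genes only. The part of these markers in the values of Tgfbr2 and Smad7 was not tested.

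**Figure D4:**
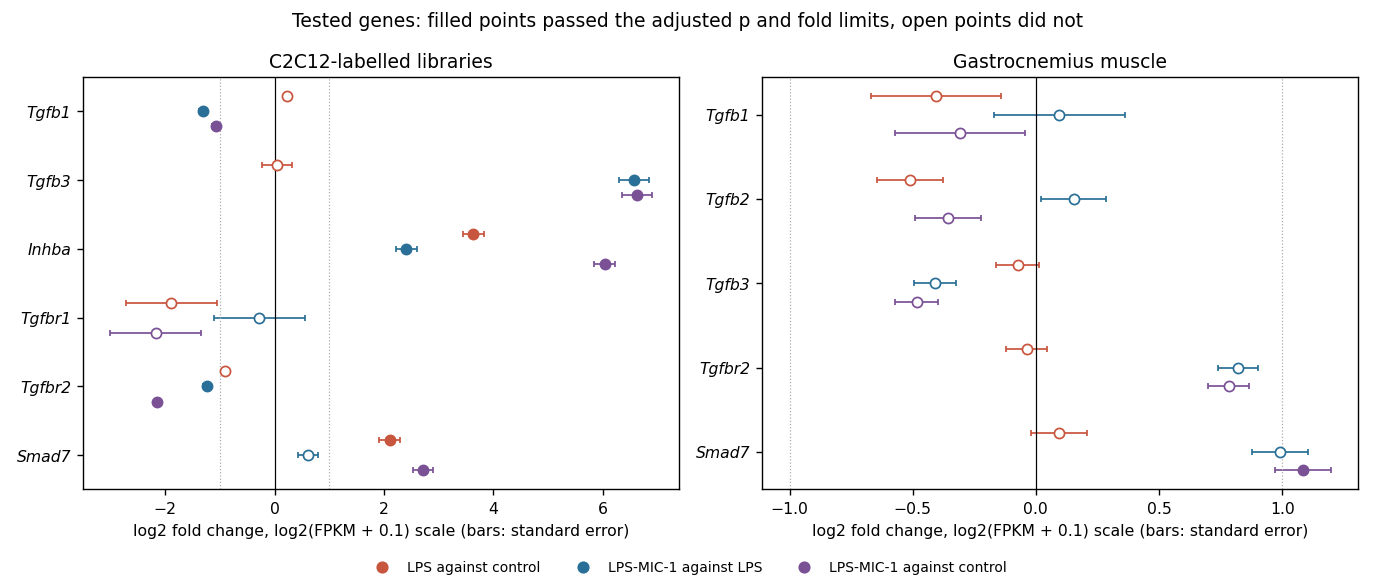
Log2 fold changes (log2(FPKM + 0.1) scale) with their standard errors for the genes tested in C2C12-labelled libraries (left) and muscle (right), with different horizontal ranges and dotted lines at the fold limit of 1. Tgfbr2 lay at -1.25 in C2C12 and at 0.82 in muscle for LPS-MIC-1 against LPS, and Tgfb3 at 6.58 and -0.41.

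The order of levels also differed between the experiments, read within each because the files were normalized apart. FPKM is scaled for length, so levels of different genes can be set side by side. In C2C12 control, Tgfb1 (mean 191 ± 1.44 FPKM, SD, n = 3) stood above Tgfbr2 (83.7 ± 1.85), followed by Tgfbr1 (1.99 ± 0.405) and Smad7 (0.733 ± 0.0997), none of them overlapping, and the other 6 genes overlapped with their neighbours near 0. In C2C12 LPS-MIC-1 the order was Tgfb1, Tgfbr2, Tgfb3, Inhba and Smad7, of which Inhba and Smad7 overlapped. In muscle control, Tgfb3 (10.6 ± 0.569 FPKM) led, and Tgfbr2 (4.53 ± 0.393), Tgfb1 (4.08 ± 0.578) and Tgfb2 (3.61 ± 0.521) overlapped in turn. In muscle LPS-MIC-1, Tgfbr2 (7.85 ± 0.447 FPKM) and Tgfb3 (7.56 ± 0.858) overlapped at the top, above Smad7 (4.11 ± 0.213).

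The other genes of the pathway were taken from 7 lists by role. Their counts are to be read beside the shares of all genes called, in C2C12 20.9% for LPS against control, 49.9% for LPS-MIC-1 against LPS and 43.3% for LPS-MIC-1 against control, and a share near these is not a result about a list. In C2C12, LPS against control called 5 of 12 extracellular regulators higher and 0 lower. Of these 12 genes, 10 passed the FPKM filter only through LPS-MIC-1, a group outside this comparison. The called genes Dcn, Thbs1 and Fstl3 were among those 10. Dcn, a collagen-binding proteoglycan that also binds TGF-β, was at 0.878 ± 0.188 FPKM in LPS and listed at 0 in control. Thbs1, an activator of latent TGF-β, was at 0.612 ± 0.399 FPKM in LPS and likewise at 0 in control. Of 13 intracellular regulators 4 were higher and 1 lower, led by Nedd4l, a ubiquitin ligase for Smads (log2 fold change 2.28, adjusted p = 1.52e-06), and Pmepa1, an inhibitor that binds Smads (2.22, adjusted p = 9.68e-07). Of 14 Smad target genes, 4 were higher and 0 lower, and 6 of the 14 passed the filter only through LPS-MIC-1, Acta2 among them. Acta2, smooth muscle actin, rose from 0.179 ± 0.0714 to 1.40 ± 0.582 FPKM (log2 fold change 2.40, adjusted p = 0.000134).

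The remaining C2C12 lists held receptors, ligands, Smads and stress genes. Of 8 other receptor genes, 1 was called, Acvrl1, the type I receptor ALK1 (7.13 to 31.8 FPKM, log2 fold change 2.15, adjusted p = 2.85e-06). Of 3 other ligand genes and 6 Smad genes, 0 were called by limma, with 1 and 5 at an unadjusted p under 0.05. Of 11 tested genes known to regulate or accompany Gdf15 under stress, 9 were called higher, with a list median of 2.08 beside 0 over all genes. Ddit3, the stress transcription factor CHOP, rose from 17.3 ± 1.53 to 183 ± 7.97 FPKM, and Mdm2, a p53 target, from 25.6 ± 0.414 to 194 ± 0.379 FPKM. Gdf15 itself was above 0 in 1 of the 3 LPS libraries.

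In LPS-MIC-1 against LPS, 10 of 12 extracellular regulators were higher and 2 lower. Of those 12 genes, 10 passed the FPKM filter only through the LPS-MIC-1 group, so the filter fixed this count. The leading genes were Grem1, a secreted BMP antagonist (0.0272 to 64.6 FPKM), and Nbl1, another antagonist of that family (0.300 to 173 FPKM). Of 14 Smad targets 8 were higher and 4 lower, and 6 of the 14 passed only through LPS-MIC-1, among them Col3a1, a collagen of connective tissue, which went from 0.127 to 227 FPKM, and Cyr61, which went from 0.193 to 163 FPKM. Of the Smad genes, Smad3 rose from 3.04 ± 0.0101 to 13.0 ± 1.02 FPKM and Smad4 fell from 19.9 ± 0.559 to 5.24 ± 1.36 FPKM, in a list with 3 of 6 higher and 1 lower. Dcn and Col3a1 are also in the mesenchymal marker list, and these genes moved with the cell type given above.

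Of the other C2C12 lists in that comparison, 3 of 3 ligand genes were higher, all 3 tested only through their LPS-MIC-1 values. Inhbb and Inha, the inhibin βB and α subunits, were listed at 0 in every LPS library and stood at 4.35 ± 0.611 and 4.72 ± 2.38 FPKM in LPS-MIC-1. Of 8 other receptor genes 2 were higher and 4 lower. Tgfbr3, the coreceptor betaglycan, went from 0.00331 to 10.7 FPKM, tested only through LPS-MIC-1, and Acvrl1 from 31.8 FPKM to values listed at 0. Of 13 intracellular regulators 3 were higher and 3 lower, a share near that of all genes. They were led by Zfyve9, an adaptor known as SARA that presents Smads to the receptor (0.0310 to 8.04 FPKM, tested only through LPS-MIC-1), and Pmepa1 (4.42 to 43.8 FPKM). Of the 11 stress genes 9 were lower and 0 higher, among them Atf3, a stress transcription factor (505 ± 7.22 to 27.5 ± 9.84 FPKM), and Mdm2 (194 to 13.5 FPKM), while Gdf15 was above 0 in all 3 LPS-MIC-1 libraries.

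Against control, the LPS-MIC-1 libraries of C2C12 had the same 3 ligand genes higher, among them Gdf11, a close relative of myostatin (0.0203 to 5.77 FPKM). Of 8 other receptor genes 2 were higher and 3 lower. Of 6 Smad genes 2 were higher and 1 lower, with Smad1 at 14.4 ± 1.36 against 4.83 ± 0.203 FPKM. The limit set by the filter holds here too, for the ligands, for the extracellular regulators with 10 of 12 higher and 1 lower, and for the Smad targets with 10 of 14 higher and 1 lower. It also holds for Tgfbr3 among the receptors and Zfyve9 among the intracellular regulators, both called higher. Of the Smad targets, Acta2 stood at 0.179 FPKM in control and 317 FPKM in LPS-MIC-1. The intracellular regulators were higher in 5 of 13 and lower in 2. Stress genes were higher in 3 of 11 and lower in 3, among them Egr1, an immediate early transcription factor, at 51.1 ± 5.10 against 295 ± 1.85 FPKM.

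The list medians of the C2C12 log2 fold changes are read beside those of all genes tested, 0 for LPS against control, -0.047 for LPS-MIC-1 against LPS and -0.060 for LPS-MIC-1 against control. In the same order they were 0.078, 0.54 and 0.79 for the Smads, 0.20, 0.21 and 0.20 for the intracellular regulators and 2.08, -2.15 and 0.13 for the stress genes. No median is given for the ligands, receptors, extracellular regulators and Smad targets, which include genes listed at 0 in a whole group.

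In muscle the shares of all genes called were 1.25% for LPS against control, 15.1% for LPS-MIC-1 against LPS and 15.5% for LPS-MIC-1 against control. LPS against control called 0 of 5 other ligand genes, 0 of 7 receptor genes, 0 of 6 Smad genes and 0 of 11 genes in each of the 2 regulator lists by limma. At an unadjusted p under 0.05 these lists held 1, 4, 2, 5 and 3 genes. Of 15 Smad targets 1 was called, Cyr61, a matricellular protein, which fell from 13.7 ± 0.667 to 5.93 ± 0.286 FPKM (log2 fold change -1.19, adjusted p = 6.74e-06). Of 10 stress genes 1 was higher and 1 lower. Chac1, a glutathione-degrading enzyme induced by the ATF4 pathway, fell from 98.0 ± 4.54 to 7.76 ± 1.06 FPKM, and Atf3 rose from 0.410 ± 0.0813 to 0.951 ± 0.235 FPKM. Both Atf3 means were under the 1 FPKM filter, which Atf3 passed only through LPS-MIC-1, a group outside this comparison.

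In LPS-MIC-1 muscles against LPS, 2 of 5 ligand genes were higher and 1 lower, and among them Inhbb rose from 0.138 ± 0.0448 to 2.80 ± 0.371 FPKM (log2 fold change 3.61, adjusted p = 2.73e-05, tested only through LPS-MIC-1) and Inha from 3.72 ± 0.991 to 8.96 ± 2.06 FPKM (1.25, adjusted p = 0.00303). Of 7 receptor genes 2 were higher and 1 lower, with Acvr1b, the activin type I receptor ALK4, at 11.8 ± 0.304 in LPS and 51.4 ± 3.13 FPKM in LPS-MIC-1, and Acvr1, the type I receptor ALK2, at 7.24 ± 0.574 and 2.41 ± 0.338 FPKM. Of 6 Smad genes 2 were higher, Smad1 and Smad5, which serve the BMP branch (log2 fold changes 1.40 and 1.70). Extracellular regulators were higher in 2 of 11 and lower in 1, led by Ltbp4, a latent TGF-β binding protein (14.0 ± 0.305 to 5.32 ± 0.517 FPKM), and Fstl1, a follistatin-like glycoprotein (5.67 ± 0.118 to 11.9 ± 0.671 FPKM).

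The intracellular side of the muscle comparison gave 2 of 11 regulators higher and 1 lower, with Nedd4l at 4.16 ± 0.212 in LPS and 23.8 ± 1.18 FPKM in LPS-MIC-1 and Tgif1, a Smad corepressor, at 6.05 ± 1.03 and 23.6 ± 1.52 FPKM. Of 15 Smad targets 5 were higher and 4 lower, and 1 of the 15 passed the filter only through LPS-MIC-1. Cdkn1a, the cell cycle inhibitor p21, rose from 6.64 ± 0.614 to 136 ± 0.781 FPKM. Of 10 stress genes 4 were higher and 0 lower, and 3 of the 10 passed the filter only through LPS-MIC-1, with Chac1 at 111 ± 6.67 and Atf3 at 21.7 ± 2.06 FPKM in LPS-MIC-1, while Gdf15 was listed at 0 in the same libraries.

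Against control, LPS-MIC-1 muscles had 3 of 5 ligand genes higher, among them Mstn, which encodes myostatin. Mstn stood at 27.2 ± 1.18 FPKM in control muscles and 38.7 ± 2.02 FPKM with LPS, beside 60.9 ± 3.67 FPKM with LPS-MIC-1, and the difference from control was 1.16 (SE 0.0585, adjusted p = 8.29e-07). Receptor genes were higher in 1 of 7 and lower in 2, and Smad genes higher in 2 of 6. Extracellular regulators were higher in 2 of 11 and lower in 1, with Fstl3, a follistatin relative that binds activins, at 1.01 ± 0.0626 in control and 2.40 ± 0.301 FPKM in LPS-MIC-1. Intracellular regulators were higher in 3 of 11, and Smad targets higher in 4 of 15 and lower in 5. Stress genes were higher in 5 of 10, with Ppp1r15a, the stress phosphatase subunit GADD34, at 15.7 ± 0.749 in control and 118 ± 4.95 FPKM in LPS-MIC-1. Of the 10 stress genes, 3 (Atf3, Asns and Sesn2) passed the filter only through LPS-MIC-1, and all 3 were called higher. The same limit holds for Inhbb among the ligands and for 1 of the 15 Smad targets.

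In muscle the medians of all genes tested were 0.0055 for LPS against control, -0.0090 for LPS-MIC-1 against LPS and 0.0095 for LPS-MIC-1 against control. In that order the ligands had -0.20, 0.69 and 1.05, the receptors 0.0074, -0.40 and -0.36, and the Smads -0.075, 0.45 and 0.64. The extracellular regulators had -0.036, 0.21 and 0.63, and the intracellular regulators 0.16, -0.14 and 0.085. The Smad targets had -0.26, -0.21 and -0.56, with members called in both directions, and the stress genes 0.14, 0.81 and 0.70.

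**Figure D5:**
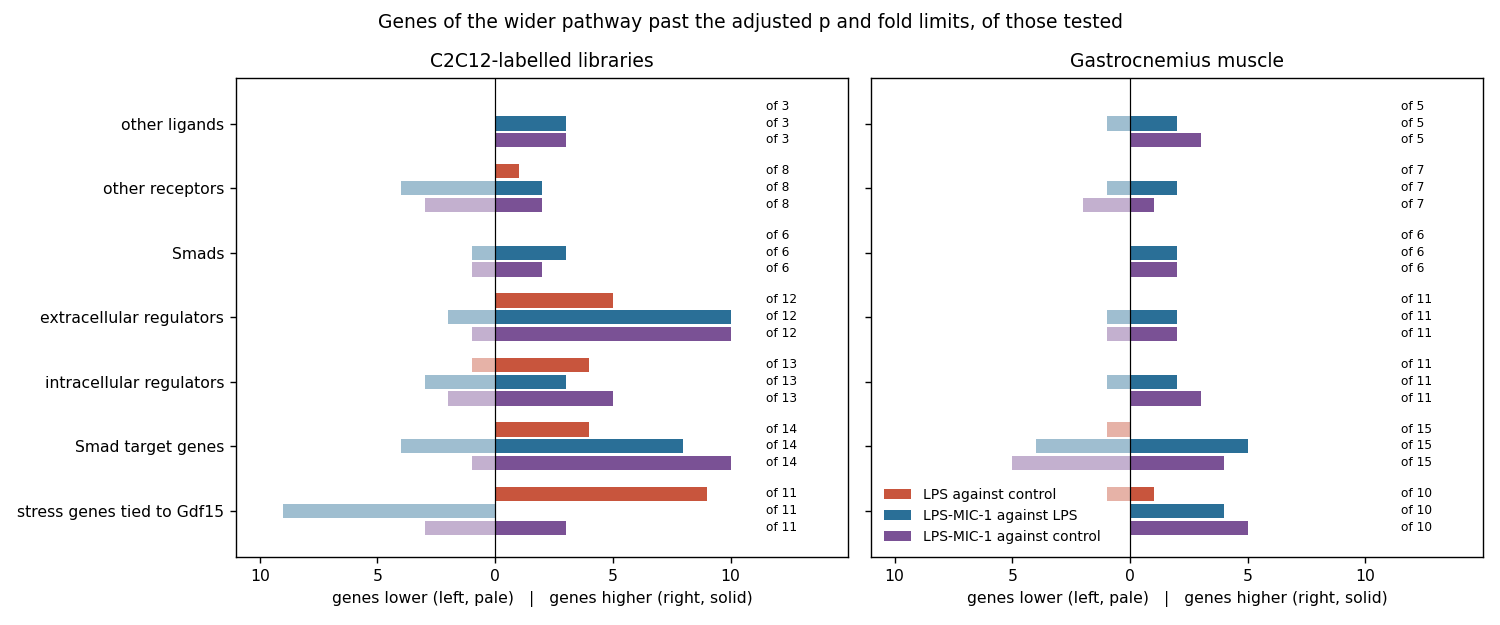
Number of genes called higher (right, solid bars) and lower (left, pale bars) in 7 pathway lists for 3 comparisons in C2C12-labelled libraries (left panel) and muscle (right panel), with the number tested printed at the end of each bar. The bars include genes that passed the FPKM filter only through LPS-MIC-1. In C2C12 the stress genes were higher in 9 of 11 for LPS against control and lower in 9 of 11 for LPS-MIC-1 against LPS. In muscle LPS alone called 3 genes over the 7 lists (Cyr61, Chac1 and Atf3), of which Atf3 passed the filter only through LPS-MIC-1.

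The gene whose levels over the 9 libraries lay closest to each of the tested genes was found by Pearson correlation of log2 values, given as a description. In C2C12 these were Ppm1j for Tgfb1 (r = 0.999), Ptk7 for Tgfb3 (0.999), Ogfrl1 for Tgfbr2 (0.999), Ttc39c for Inhba (0.998), Map4k4 for Smad7 (0.997) and Ahnak for Tgfbr1 (0.932). In muscle these were Lamp1 for Tgfbr2 (r = 0.994), Cd27 for Smad7 (0.995), Ttll4 for Tgfb3 (0.988), Ube2c for Tgfb1 (0.952) and 6430527G18Rik for Tgfb2 (0.942). The points share 3 groups, so a gene that differs between groups correlates with many others, 2082 over 0.9 for Tgfb1 in C2C12 and 8 for Tgfb1 in muscle.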

How the data were processed

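RNA-seq was done on 18 libraries, 9 per experiment. Per the study's methods and processing notes, the authors pseudoaligned reads with kallisto, summarised transcripts with tximport and tested genes with DESeq2, and the notes name the mm9 build. The authors deposited FPKM values per gene and library, which were used as given. They also deposited 6 tables of comparisons with base means, a signal of counts divided by size factors. The base means are quoted as the authors' values, and the fold changes and p-values in those tables were not used. The muscle values came with 11 columns without a name, 9 of them holding per-sample values, which were not used. Depth per library is not given in the sources used here.

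For each experiment on its own, limma 3.58.1 (R 4.3.3) compared the means of 3 groups over 9 libraries on the log2(FPKM + 0.1) scale. Genes entered with a mean FPKM over 1, variances were moderated by eBayes with a trend, and Benjamini-Hochberg adjustment covered every gene tested. An exact permutation test of 3 against 3 libraries cannot go below p = 0.1, so none is given. Alternatives changed 1 choice at a time: the pseudocount (1 or 0.01), the filter (a mean over 5 FPKM, or only values above 0 in at least 3 libraries), the scaling (median ratios or quantiles), the eBayes trend, the third group left out of a fit, a replicate block, and each library left out.

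The 10 genes, the 7 pathway lists and the 6 marker lists were chosen with earlier results of these data known. Named were all 10, the 2 genes of largest change per pathway list and comparison where called (each in at least 1 comparison), and the most correlated gene for each. One gene that this rule names is not reported here. All 10 symbols matched a RefSeq gene table of another build, so no positions are given. The steps were tested on simulated data. Plots used Python 3.11.15 with matplotlib 3.10.9.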

Additional observations from a re-analysis of the deposited data

Results flagged for a closer look

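For 3 genes tested in both experiments, groups that did not overlap differed one way in C2C12 and the opposite way in muscle under the same contrast. Tgfbr1 in LPS against control and Tgfb2 in LPS-MIC-1 against control did so too, but neither was tested in both. Mean Tgfbr1 was 1.99 FPKM in control and 0.560 FPKM in LPS in C2C12, and 0 and 0.400 FPKM in muscle. Mean Tgfb2 was 0.0133 FPKM in control and 1.31 FPKM in LPS-MIC-1 in C2C12, and 3.61 and 2.78 FPKM in muscle. Of all genes tested, groups did not overlap for 79.4% to 85.5% in C2C12 and 36.5% to 64.6% in muscle, depending on the contrast. Tgfb1 in LPS against control had a log2 fold change of 0.23 in C2C12 and -0.40 in muscle, neither of them a call. Tgfb3 in LPS-MIC-1 had 6.58 against LPS and 6.63 against control in C2C12, and -0.41 and -0.48 in muscle. In C2C12, Tgfb3 was tested only through its LPS-MIC-1 values. Tgfbr2 in LPS-MIC-1 had -1.25 against LPS and -2.16 against control in C2C12, and 0.82 and 0.78 in muscle. The muscle values of Tgfb3 and Tgfbr2 were not calls. These differences between the experiments were not tested, since the files were normalized apart, and the C2C12 control and LPS libraries carried macrophage sums of 7834 FPKM or more.

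Gdf15 had a mean normalized count of 2580 in the authors' muscle table of control against LPS, although its FPKM was listed at 0 in all 9 muscle libraries and its mean was 0 in the other 2 muscle tables. The same table listed Tgfb2, Tgfb3, Inhba and Fst at 0, and gave Tgfbr1 a mean of 844 and Tgfbr2 a mean of 9573. Acta1, the muscle actin, had a mean of 2145 there, against 826226 and 818053 in the other muscle tables, and 7 of 12 fibre genes were at 0. Spearman's rho across genes between that table and the muscle FPKM was 0.688, against 0.971 and 0.972 for the other 2, with genes not being independent replicates. With the C2C12 FPKM, rho was 0.753 for that table, against 0.813 and 0.814 for the other 2. It listed 21541 genes, and the other 2 listed 21401 each. Which libraries lie behind that table was not tested.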

How the results depend on the processing

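Of 573 alternative values of the fold changes given above, 558 kept their direction and stayed called or not called. Of the rest, 4 lost a call, 3 gained one and 8 changed sign, none of the 8 from a called value. The adjusted p alone could still cross its limit among the 558. For muscle Tgfb2 in LPS against control it ran from 0.0200 to 0.109 in limma. LPS against control in C2C12 turned for Tgfb3 to -0.41 under quantile normalization, -0.16 without control replicate 3 and -0.19 without LPS replicate 3, and ran from -0.19 to 0.28 when a library was left out. LPS-MIC-1 against LPS in C2C12 turned for Tgfbr1 to 0.29 without LPS replicate 2 and 0.69 without LPS-MIC-1 replicate 3, within -0.88 to 0.69 over the libraries left out. In muscle, Tgfbr2 in LPS against control turned to 0.029 without control replicate 2 (range -0.087 to 0.029), and Tgfb1 in LPS-MIC-1 against LPS to -0.034 under quantile normalization and -0.24 without LPS-MIC-1 replicate 3 (range -0.24 to 0.31). With a mean FPKM over 5, the listed genes called in C2C12 were 0 (LPS against control), 2 and 2, since Tgfb3, Inhba and Smad7 are then not tested, and 0 in muscle LPS-MIC-1 against control. Muscle LPS-MIC-1 against LPS had 1 called with a pseudocount of 0.01 and 0 to 1 when a library was left out. Muscle LPS-MIC-1 against control had 0 called with a pseudocount of 1 and under quantile normalization.

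Over all muscle genes, LPS against control called 118, but 71 with a pseudocount of 1 and 57 over 5 FPKM. LPS-MIC-1 called 1431 against LPS and 1464 against control, 2158 and 2240 without a filter, and 656 and 677 over 5 FPKM. The replicate block left the listed genes called at 2, 4 and 5 in C2C12 and 0, 0 and 1 in muscle, with 2056, 5227, 4472, 115, 1431 and 1463 genes called in all. The deviations of samples with the same number correlated at -0.08 to 0.06 in C2C12 and -0.05 to 0.08 in muscle, with 0 of 9 pairs over 0.1 in each. Pairs of different number ran from -0.09 to 0.12 in C2C12 and from -0.07 to 0.08 in muscle. These values do not show whether samples of the same number shared a culture or batch.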
